A study of Mus musculus with 2 samples.

Results

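The comparison described here is that of mouse fibroblasts sorted for high against low fluorescence of a histone reporter, H2B-iRFP. Of the 768 single cells of the series, 767 had at least 1000 genes detected and were used, 383 of the high sort and 384 of the low sort. All cells came from NIH3T3-Rev-VNP1-H2B-iRFP, a derivative of the NIH3T3 mouse fibroblast line. It carries a Venus reporter of the clock gene Nr1d1 and a second construct in which iRFP, a near-infrared fluorescent protein, is joined to histone H2B, so both groups hold both reporters. Per the labels, the cells grew in DMEM high glucose with sodium pyruvate, 10% fetal bovine serum and penicillin-streptomycin to 95% confluency, about 5 days after seeding. They were not synchronized and received no treatment named in the labels. After trypsin and a DAPI stain against dead cells, single cells were sorted into 384-well plates and sequenced by FLASH-seq, which reads full-length transcripts. Whether the line is a single clone is not given in the sources used here.

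The sorting record placed every high-sort cell on plate 1 and every low-sort cell on plate 2. The H2B-iRFP sort and the plate, with all its handling, therefore cannot be told apart, and there is 1 sample per group and no test. Each plate held the same 4 gates of Venus fluorescence, numbered here 1 to 4 from dim to bright, in the same well columns. Counts were summed over the 96 cells of each gate (95 in gate 1 of plate 1), which gave 8 sums and 4 matched pairs. The 4 gates of a plate share that plate and are not replicates. What they show is whether a difference between the plates recurs at every level of the clock reporter. No SE and no p-value are given, and each SD below is over the 4 gate pairs.

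Histone H2B is one of the core proteins around which DNA is wrapped, and a fluorescent H2B fusion stains chromatin. Its brightness in a cell depends on how strongly the construct is transcribed, on how stable the fusion protein is, and on how much DNA the cell holds, since cells replicate their DNA and histones before they divide. NIH3T3 cells stop dividing when they become confluent, so a dense culture usually holds few cells in mitosis.

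The far-red fluorescence recorded for each cell, in arbitrary units, separated the sorts completely. Cells were sorted by H2B-iRFP fluorescence, so this gap describes the sort itself and is no finding about the cells. Medians in gates 1 to 4 were 369572, 350002, 329808 and 358770 units on plate 1 and 148930, 161602, 140004 and 159876 units on plate 2. The dimmest cell of plate 1 stood at 228655 units and the brightest of plate 2 at 221319 units, so 0 cells overlapped. The plates differed 2.30-fold in the median. The record does not name the detector used for iRFP, and the values are those of the brightest far-red channel.

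The iRFP transcript differed by nearly the same factor as the fluorescence. As CPM, the count scaled to a common library total with TMM factors, it stood at 46.5, 40.2, 40.5 and 40.1 in gates 1 to 4 of plate 1. On plate 2 it stood at 17.6, 17.3, 17.3 and 19.9 CPM. Every gate of plate 1 lay far above every gate of plate 2. Summed over the gates, the ratio of plate 1 to plate 2 was 2.31 (exact binomial 95% interval 2.24 to 2.39), from 13084 and 5924 counts. The interval covers counting error only, because reads amplified by PCR are not independent molecules where no molecular identifiers are used. The mean log2 ratio was 1.21 ± 0.16 (SD over 4 gates).

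**Figure D1:**
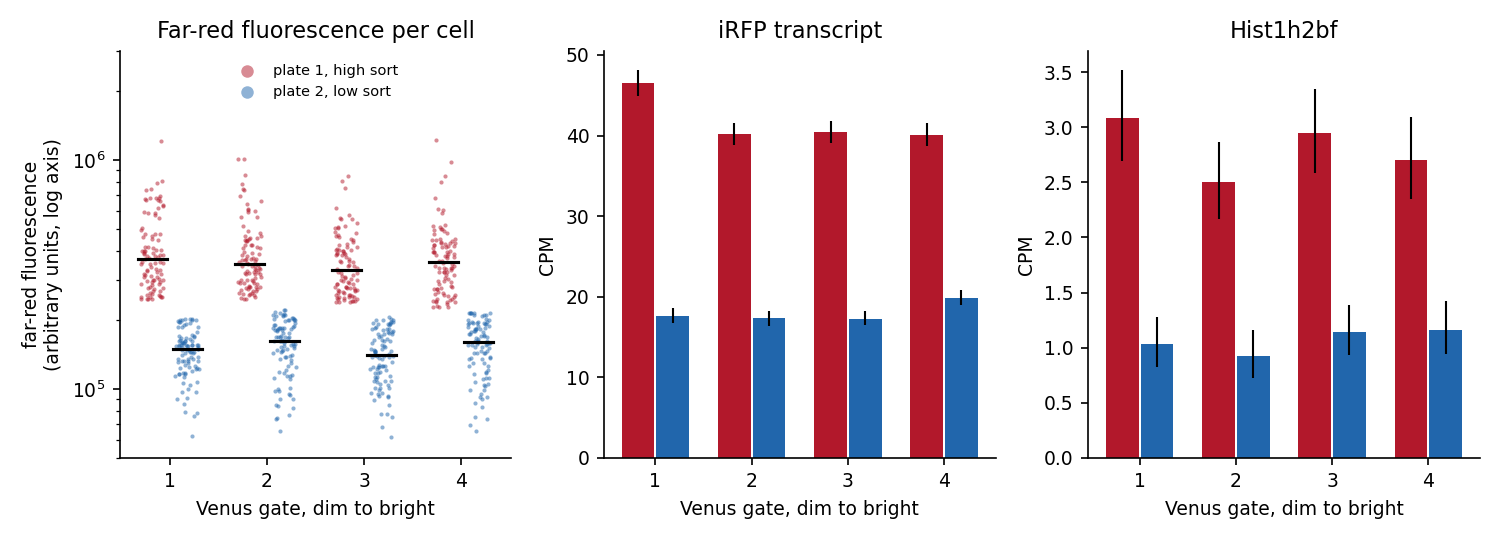
Left, far-red fluorescence of each cell (arbitrary units, log axis) by Venus gate, with a black line at the median. Middle and right, levels of the iRFP transcript and of Hist1h2bf in CPM, with exact Poisson 95% intervals for counting error. Red is plate 1 (high sort) and blue plate 2 (low sort). In every gate all red points lie above all blue points, which the sort itself sets, and the red bars are at least 2.02 times the blue bars.

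The other reporter did not differ in this way. The YFP feature, which stands for Venus, was at 20.4, 97.0, 283 and 668 CPM over the gates of plate 1 and at 23.3, 105, 285 and 657 CPM on plate 2. Its mean log2 ratio was -0.07 ± 0.10. Nr1d1 itself, a repressor of the circadian clock, had a ratio of 0.04 ± 0.10. The gates were matched by their order of Venus fluorescence, so alike levels of the clock reporter follow from the design. They are therefore no independent contrast to iRFP. In gates 1 and 2 YFP was lower on plate 1, at ratios of 0.87 (exact binomial 95% interval 0.82 to 0.94) and 0.93 (0.90 to 0.95). In gates 3 and 4 its ratios were 1.00 and 1.02.

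The plates were alike in median depth. Median counts per cell were 835930 on plate 1 and 852658 on plate 2, with medians of 11106 and 11094 genes detected. The shallowest cell of plate 2 had 2100 counts, against 353492 on plate 1. A stricter filter on total counts and mitochondrial share left out 5 cells, all of plate 2. Without them, 31 genes were called higher and 39 lower by the rule given below, against 31 and 40 with them. The median share of mitochondrially encoded counts was higher on plate 1 in every gate, 8.68% to 9.77% against 7.02% to 7.91%. Forward scatter, which is related to cell size, was 1.06 to 1.13 times as high on plate 1 in the 4 gates. The size recorded from the forward scatter image differed less, at ratios of 1.03, 1.02, 1.02 and 0.99 in gates 1 to 4. The part of these differences in the results below was not tested. All 8 fibroblast markers, among them Col1a1, Vim and Pdgfra, were above 5 CPM on average, with summed levels of 19168 to 25031 CPM on plate 1 and 19685 to 24398 CPM on plate 2. Summed endothelial markers reached at most 0.80 CPM and adipocyte markers at most 0.36 CPM in any sum. Single markers of other lists were higher, with Krt14, a keratin of epithelia, at 33.6 CPM on average, and Lyz2, a lysozyme, above 5 CPM among the immune markers.

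Genome-wide, the plates differed little. Of 9810 genes with a mean of at least 5 CPM, the median of the mean log2 ratios was -0.00 and the median absolute value 0.07, and 95% of genes lay within 0.28 of 0. A gene was called when its ratio had the same sign in all 4 gates and a mean of at least 0.5 log2 (1.41-fold). By this rule 31 genes (0.316% of those tested) were higher and 40 (0.408%) lower on plate 1. Library totals without TMM scaling moved this split to 21 higher and 65 lower, and totals without mitochondrially encoded genes to 24 and 52. Leaving out 1 gate moved the count of lower genes most, to 81 without gate 3 and to 70 without gate 4, and that of higher genes to 48 without gate 2 and 47 without gate 4. Without any threshold of size, 1428 genes (14.6%) were higher and 1380 (14.1%) lower in all 4 gates. All 4 values of plate 1 lay above all 4 of plate 2 for 248 genes (2.53%) and below them for 200 (2.04%), or 448 in all (4.57%). Of the called genes, 12 of the 31 and 11 of the 40 had such separate groups.

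The called genes with the highest and lowest ratios were mostly weakly expressed. Only 7 genes reached 1 log2 (2-fold) in absolute value, and all 7 were called. Among them were iRFP and Phyh above 0, and Eln, Lockd, Alcam and Aspa below 0. Phyh, an enzyme that breaks down branched fatty acids in peroxisomes, had the largest positive ratio, 1.31 at a mean of 8.33 CPM. It was below the level of 20 CPM required for naming genes here and is named after its value was seen, as are Alcam and Aspa. Just inside the threshold lay Ksr1 at -0.50, and just outside Rdh10 at -0.49.

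**Figure D2:**
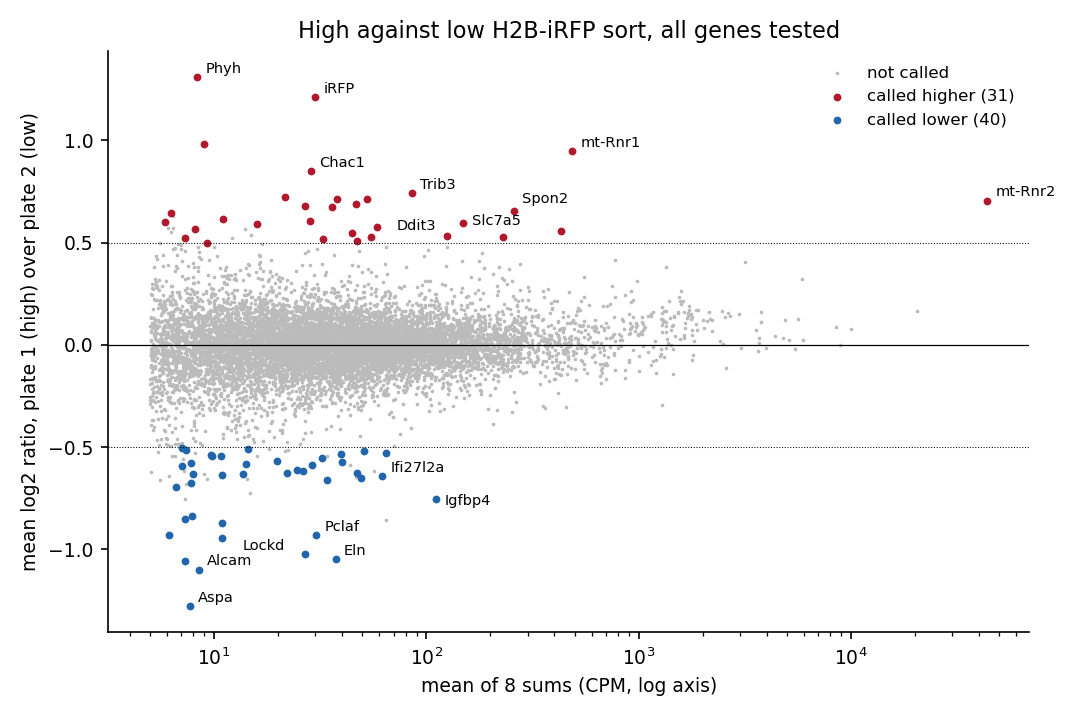
Mean log2 ratio of plate 1 (high sort) over plate 2 (low sort) against mean level in CPM (log axis) for the 9810 genes tested. Each point is a gene, red if called higher (31) and blue if called lower (40), and dotted lines mark 0.5 log2. Most grey points lie near 0, and Phyh and iRFP are the highest points. The mitochondrial ribosomal RNAs mt-Rnr1 and mt-Rnr2 are the most abundant of the called genes.

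The mitochondrial ribosomal RNAs were higher on plate 1 by a similar factor in all 4 gates. They are encoded by mt-Rnr1 and mt-Rnr2 and form the small and large subunits of the ribosome inside mitochondria. In gates 1 to 4 mt-Rnr1 was at 689, 631, 644 and 595 CPM on plate 1, and at 342, 329, 352 and 302 CPM on plate 2. The groups did not overlap, and the mean log2 ratio was 0.95 ± 0.06. For mt-Rnr2, plate 1 gave 59110, 56204, 53034 and 49069 CPM and plate 2 gave 32441, 36528, 35159 and 29378 CPM. These groups did not overlap either, and the ratio was 0.71 ± 0.12.

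The protein-coding genes of the same genome did not follow. The 8 other tested members of the list of mitochondrially encoded genes ranged from -0.18 (mt-Atp6) to 0.16 (mt-Nd1). The most abundant of them, mt-Nd1, a subunit of respiratory complex I, was at 18433 to 20849 CPM on plate 2 and 19878 to 23115 CPM on plate 1. mt-Cytb, of complex III, had a ratio of -0.00 ± 0.05. As a share of all counts, the pair of ribosomal RNAs held 5.03% to 5.71% on plate 1 and 3.09% to 3.76% on plate 2. The other 13 genes of the list held 4.02% to 4.40% and 4.01% to 4.26%. The higher mitochondrial share of plate 1 thus lay in the ribosomal RNAs. The 74 nuclear genes of the respiratory chain had a median of -0.02, with 0 called, beside 0.724% of all genes.

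Several genes called higher belong to the amino acid response. When amino acids run short or the cell is otherwise stressed, phosphorylation of the initiation factor eIF2 lowers translation in general but raises that of the transcription factor ATF4. ATF4 then activates genes for amino acid synthesis, amino acid import and tRNA charging, together with regulators such as Ddit3 (CHOP), Trib3 and Chac1. ATF4 acts with C/EBP partners at a composite DNA element in many of its target genes. Stress of the endoplasmic reticulum can reach the same genes. Which stress, if any, acted in these cells was not tested.

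Chac1, which degrades glutathione, was at 31.8, 46.8, 34.4 and 33.3 CPM over the gates of plate 1 and at 17.0, 22.8, 27.0 and 15.4 CPM over those of plate 2. The lowest value of plate 1 exceeded the highest of plate 2, and the mean log2 ratio was 0.85 ± 0.34. Slc7a5, the light chain of the large neutral amino acid transporter, was at 179, 169, 160 and 212 CPM on plate 1 and at 108, 130, 110 and 127 CPM on plate 2. These groups did not overlap (0.60 ± 0.18). Mthfd2, a mitochondrial enzyme of one-carbon metabolism, was at 71.8, 70.1, 69.4 and 68.9 CPM against 39.8, 61.8, 43.8 and 44.9 CPM. It was nearly constant over the gates of plate 1, and its groups did not overlap (0.58 ± 0.28).

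Trib3, a pseudokinase that binds ATF4 and limits its activity, differed in each gate but not across gates. It was at 136, 133, 94.7 and 61.3 CPM on plate 1 and at 82.9, 86.2, 49.4 and 38.2 CPM on plate 2. The ratio lay between 0.63 and 0.94 in the 4 gates (mean 0.74 ± 0.14), while the level was lower toward bright Venus on both plates, so the groups overlapped. Ddit3 behaved alike, with 161, 177, 142 and 107 CPM against 113, 134, 87.7 and 75.2 CPM (0.53 ± 0.12). In the reference annotation Ddit3 overlaps Mars on the opposite strand, and reads shared between them would make its counts uncertain. Slc7a5, Ccn2, Eln, Sulf2, Lockd and Pclaf also overlap another annotated gene on the opposite strand, and Mthfd2 one on the same strand, so the same limit holds for them.

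The breadth of this response was described with a list of 29 genes of the amino acid response, chosen after the values were seen, so that its counts are a description only. Of its 25 tested members, 7 were called higher and 0 lower, beside 0.316% and 0.408% of all genes. The 7 were Chac1, Trib3, Slc7a5, Mthfd2, Ddit3, Nupr1 (0.53), a small chromatin-associated stress protein, and Slc7a1 (0.51), a carrier of cationic amino acids. The ratio was positive in all 4 gates for 22 of 25 members, against 14.6% of all genes. The groups did not overlap for 10 members, all higher on plate 1, against 2.53%. The median was 0.34, and from gate 1 to gate 4 it was 0.39, 0.24, 0.41 and 0.43. One member, Cebpb, a C/EBP transcription factor, lay below 0, at -0.21.

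Uncalled members filled in the pathway at smaller ratios. Asns, asparagine synthetase, was at 245, 274, 302 and 277 CPM on plate 1 and at 180, 233, 222 and 216 CPM on plate 2, without overlap, at 0.37 ± 0.10. Psph of serine synthesis (0.39), Aldh18a1 and Pycr1 of proline synthesis (0.39 and 0.34), Gpt2 of alanine synthesis (0.38) and Slc3a2, the heavy chain partner of Slc7a5 (0.35), stood at similar values. Atf4 itself had a ratio of 0.26 ± 0.11, positive in each gate.

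Of 19 cytosolic aminoacyl-tRNA synthetase genes, which join amino acids to tRNAs, 7 had groups without overlap and all 7 were higher on plate 1, beside 2.53% of all genes. These were Cars (0.36), Iars (0.33), Eprs (0.32), Aars (0.30), Gars (0.28), Yars (0.24) and Wars (0.17). None of the 19 was called, beside 0.724% of all genes. Their median was 0.07, and the lowest was Dars at -0.12. The synthetases therefore did not move as one group. This list, too, was chosen after the values were seen.

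Genes of the endoplasmic reticulum (ER) were described in the same way. Of the list of 15 tested ER stress and amino acid response genes, Chac1, Trib3 and Ddit3 were called higher, beside 0.316% of all genes. The list median was 0.04. The 10 members that encode chaperones and other factors of that compartment were listed after the values were seen. They had a median of 0.02 and none was called, beside 0.724% of all genes. Hspa5 (BiP), the main chaperone there, was at 1483 CPM on average with a ratio of 0.04 ± 0.08. Xbp1 (0.07), Calr (0.03) and Hsp90b1 (-0.08) were as close to 0.

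**Figure D3:**
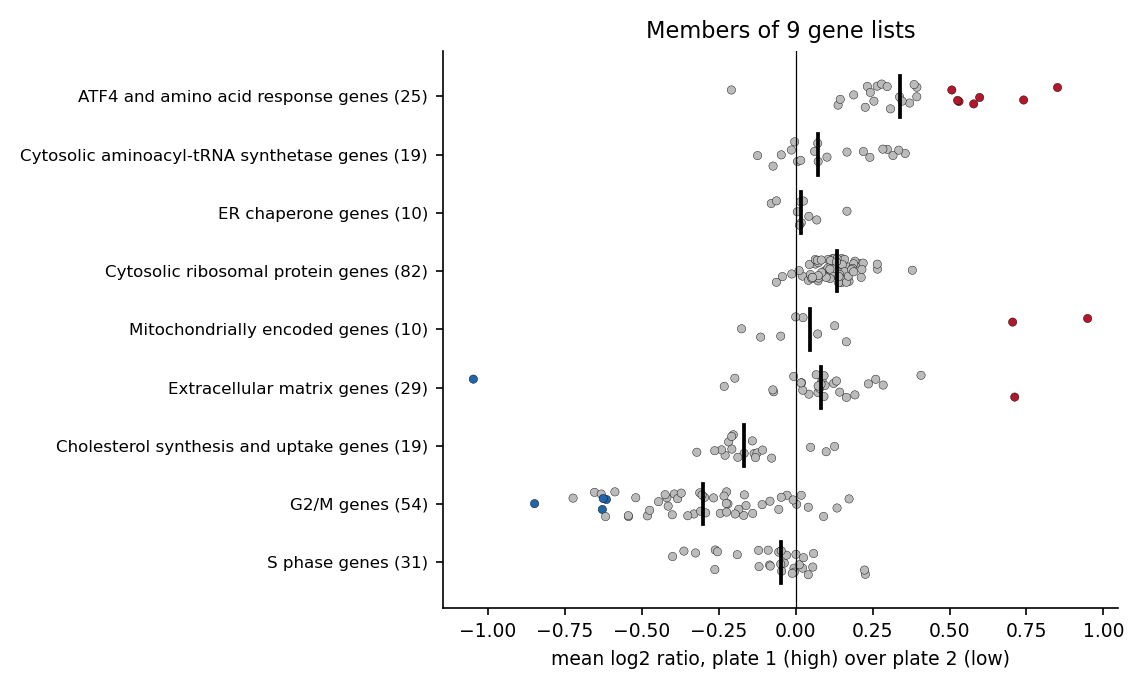
Mean log2 ratio of plate 1 over plate 2 for each tested member of 9 gene lists, with the number tested in brackets and a black line at the median. Red points were called higher, blue points lower and grey points neither. The amino acid response list is shifted to the right with a median of 0.34, the ER chaperones centre on 0.02, and the G2/M genes spread to the left with a median of -0.30.

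Promoter sequences show where the composite element bound by ATF4 and C/EBP factors can be read near these genes. The motif TGATGNAA was searched on both strands in the 250 bases before the transcription start in RefSeq promoters of build GRCm38.p6, of which 23 of the 25 tested members had one. It was found for 5 of the 23 genes (21.7%), against 3.91% of all 27025 genes with a promoter. The list was made up of amino acid response genes after the values were seen. Its share therefore describes how the list was built and not a difference between the plates. The windows below hold 60 bases each, 5′ to 3′ on the strand of the gene, with the motif, or its reverse complement TTNCATCA, in capitals. They are shown because these members of the list carry the element.
Chac1: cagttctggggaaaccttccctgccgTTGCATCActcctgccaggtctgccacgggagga
Nupr1: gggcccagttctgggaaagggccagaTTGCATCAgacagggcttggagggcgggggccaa
Asns: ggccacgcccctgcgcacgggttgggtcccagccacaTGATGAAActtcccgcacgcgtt
Pycr1: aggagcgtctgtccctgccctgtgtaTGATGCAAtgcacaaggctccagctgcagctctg
Slc7a11: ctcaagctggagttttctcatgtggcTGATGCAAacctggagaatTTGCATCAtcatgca

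These windows lie outside the transcripts, upstream of their genes. That of Chac1 is at chr2:119351023-119351082 on the plus strand. On the minus strand, that of Nupr1 is at chr7:126625547-126625606, that of Asns at chr6:7693210-7693269, that of Pycr1 at chr11:120643818-120643877 and that of Slc7a11, the cystine carrier, at chr3:50443646-50443705. The motif begins 193 bases before the start of Chac1, 110 before Nupr1, 103 before Pycr1 and 23 before Asns. Slc7a11 holds it in both orientations, yet had the smallest ratio of the 5 genes, 0.19. A match describes these letters only, and Trib3, Ddit3 and Mthfd2 had none in this window.

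Most genes of the cytosolic ribosome had ratios slightly above 0. Of 82 tested cytosolic ribosomal protein genes, 79 had a mean ratio above 0 and 54 were positive in all 4 gates, against 14.6% of all genes. None was called, beside 0.724% of all genes. The median was only 0.13, and over the gates it was 0.18, 0.20, 0.05 and 0.09. In gate 3, 27 of the 82 were lower on plate 1. Rps12, a protein of the small subunit, had the largest ratio, 0.38 ± 0.03. It was at 1618, 1512, 1487 and 1433 CPM on plate 1 and at 1208, 1172, 1146 and 1123 CPM on plate 2, without overlap. Small nucleolar RNA genes lie within Rps12 in the reference annotation, so its reads may include theirs. Snhg12, a transcript that hosts small nucleolar RNAs, was called higher, at 27.3 to 37.7 CPM on plate 1 and 19.5 to 26.9 CPM on plate 2 (0.60 ± 0.14, no overlap).

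Secreted and matrix proteins made up most of the other named genes that were higher on plate 1. Dcn (decorin), a small proteoglycan that binds collagen, was at 46.8, 73.4, 89.7 and 46.2 CPM on plate 1 and at 22.1, 68.8, 41.0 and 31.7 CPM on plate 2. Its ratio was near 0 in gate 2 (0.09) and 0.54 to 1.13 in the others, with overlapping groups (0.71 ± 0.49). Ccn2 (connective tissue growth factor), a target of the YAP and TAZ coactivators, was at 89.4, 56.9, 52.1 and 32.5 CPM against 56.9, 25.5, 31.1 and 28.1 CPM (0.69 ± 0.39). It was the only 1 of 12 tested YAP and TAZ targets called, beside 0.316% of all genes called higher. With a list this short, 1 call is no result about the list, whose median was 0.07.

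Spon2, a secreted matrix protein, was at 394, 446, 265 and 149 CPM on plate 1 and at 284, 294, 121 and 112 CPM on plate 2 (0.65 ± 0.33). Its groups overlapped, since the level also differed between the gates of each plate. Rnase4, a secreted ribonuclease, gave 76.6, 26.5, 12.9 and 15.1 CPM against 47.4, 19.1, 7.22 and 9.17 CPM (0.68 ± 0.15). Its ratio was 0.47 or more in each gate although the level itself differed widely between gates. In the reference annotation it overlaps Ang on the same strand. Fibin, a secreted protein, was at 39.5 to 61.5 CPM on plate 1 and 25.1 to 31.2 CPM on plate 2, without overlap (0.71 ± 0.39).

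A matrix gene also had the lowest ratio among called genes of at least 20 CPM. Eln, which encodes elastin, the protein of elastic fibres, was at 32.7, 25.8, 18 and 20.5 CPM on plate 1. On plate 2 it was at 56.4, 70.0, 38.5 and 37.5 CPM. Every value of plate 2 exceeded every value of plate 1, and the ratio was -1.05 ± 0.29, that is 2.07-fold higher in the low sort. Fbn1 (fibrillin), the other main component of elastic fibres, stood at 0.26, and the collagen genes Col1a1 and Col3a1 at 0.09 and -0.07. Of 29 tested matrix genes, Dcn was called higher, Eln lower and 27 neither, beside 0.316% higher and 0.408% lower over all genes. With 1 call each way, that is no result about the list, whose median was 0.08. Bgn (biglycan), a proteoglycan related to decorin, had the next largest ratio after Dcn, 0.41 ± 0.17.

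Other named genes lower on plate 1 act on growth factor and interferon signals. Igfbp4, which binds insulin-like growth factors, was at 68.1, 112, 84.2 and 67.8 CPM on plate 1 and at 127, 136, 190 and 106 CPM on plate 2 (-0.75 ± 0.38). Only gate 2 of plate 1 reached into the range of plate 2. Sulf2, a sulfatase that edits heparan sulfate outside the cell, was at 19.8, 24.4, 26.6 and 36.0 CPM against 38.7, 41.3, 43.4 and 42.0 CPM, without overlap (-0.66 ± 0.31). Ifi27l2a, an interferon-induced gene, was at 51.8, 46.2, 40.5 and 56.0 CPM against 74.2, 77.2, 78.9 and 70.7 CPM, also without overlap (-0.64 ± 0.27).

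Few other interferon and inflammation genes were called. Of 11 tested interferon-stimulated genes, Gbp2, a guanylate-binding GTPase, was called lower, at 3.02 to 5.23 CPM on plate 1 and 6.96 to 9.47 CPM on plate 2 (-0.93 ± 0.42, no overlap). Over all genes 0.408% were called lower, and with lists this short 1 call is no result about the list. The list had a median of -0.12. In all 4 gates 5 of the 11 were lower and 1 was higher, against 14.1% and 14.6% of all genes. Groups did not overlap for 2 lower members, against 2.04%, and for 1 higher member, against 2.53%. The higher one was B2m, the light chain of class I MHC, at 0.13. Ifitm3, an interferon-induced gene, was lower without overlap, at -0.39. Of 12 NF-kB target and chemokine genes, Cxcl1, a chemokine, was called lower (-0.94 ± 0.26), beside 0.408% of all genes. Here too 1 call is no result about the list. Mean ratios lay below 0 for 11 of the 12, beside 4947 of all 9810 genes, with a median of -0.14. In all 4 gates 5 of the 12 were lower and 0 higher, against 14.1% and 14.6% of all genes, and 0 had groups without overlap. Of 19 cholesterol synthesis and uptake genes, 12 were lower in all 4 gates and 1 was higher, against 14.1% and 14.6% of all genes. Their median was -0.17 and none was called, beside 0.724% of all genes. Lss, lanosterol synthase, had the lowest ratio, -0.32 ± 0.20.

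**Figure D4:**
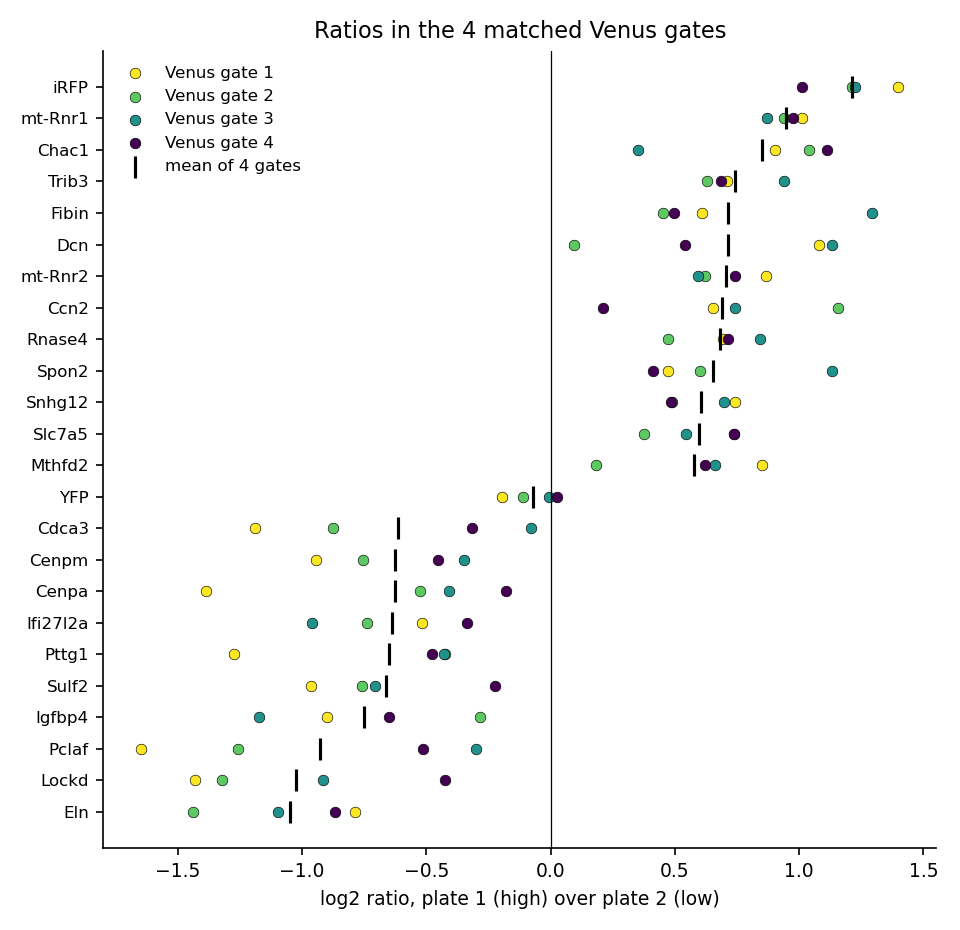
Log2 ratio of plate 1 (high sort) over plate 2 (low sort) in each of the 4 Venus gates (coloured points) for the reporters, the mitochondrial ribosomal RNAs and the 10 named genes with the largest positive and negative means. The black tick is the mean of the gates. The points of iRFP and mt-Rnr1 lie close together, while those of Pclaf, Cenpa and Cdca3 run from near 0 to below -1.

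A few genes of cell division were called lower on plate 1, and the ratios of such genes differed between the gates. The G2/M list holds genes needed for entry into and passage through mitosis. Of 54 tested members, 4 were called lower (Cdc25c, Ccnb2, Cenpa and Cdca3) and 0 higher, beside 0.408% and 0.316% of all genes. Mean ratios lay below 0 for 48 members, beside 4947 of all 9810 genes, but only 8 were lower in all 4 gates. The median was -0.30. From gate 1 to gate 4 it was -0.72, -0.75, 0.19 and -0.07, so that 5, 2, 41 and 21 of the 54 genes were higher on plate 1. Without gate 3 the median over the list was -0.55, and without gate 2 it was -0.16.

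Single genes of mitosis were uneven over the gates as well. Cenpa, the histone variant of centromeres, was at 30.9, 26.2, 25.9 and 66.7 CPM on plate 1 and at 81.0, 37.7, 34.4 and 75.6 CPM on plate 2 (-0.63 ± 0.53). The gap was wide in gate 1 and small in gate 4. Cdca3, a trigger of mitotic entry, was at 14.1, 14, 22.6 and 34.4 CPM against 32.1, 25.7, 23.9 and 42.9 CPM (-0.62 ± 0.51). Pttg1 (securin), which holds back the separation of sister chromatids until anaphase, had -1.27 in gate 1 and -0.43 to -0.48 in the others. Cenpm, of the centromere, lay between -0.94 and -0.35. Other genes of mitosis were not called: Plk1, a mitotic kinase, had a mean of -0.29 and Top2a, a topoisomerase, of -0.22, each positive in gate 3.

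Genes tied to DNA replication were divided. Pclaf, a partner of the replication clamp PCNA, was at 7.96, 15.9, 24.8 and 40.8 CPM on plate 1 and at 25, 38.0, 30.6 and 58.4 CPM on plate 2 (-0.93 ± 0.63). Its ratio was -1.87 without the cells above 3000 CPM of the summed G2/M genes. Lockd, a noncoding RNA transcribed beside Cdkn1b, was at 8.46, 8.87, 17.3 and 43.4 CPM against 22.8, 22.2, 32.7 and 58.3 CPM (-1.02 ± 0.46). Both were higher toward bright Venus on plate 1 and lower than on plate 2 in each gate. The S phase list as a whole had a median of -0.05. In it 0 of 31 were called, beside 0.724% of all genes, which with a list this short is no result about it. Its members Pcna and Mcm2 stood at -0.05 and 0.02. The histone variants H2afz and H2afv were lower in each gate, at -0.33 ± 0.16 and -0.31 ± 0.07.

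Read per cell, high levels of G2/M genes were found in a minority of cells on both plates. The summed level of the 54 genes had a median of 1033 CPM on plate 1 and 1093 CPM on plate 2. Cells above 3000 CPM numbered 34 of 383 on plate 1 (8.88%, exact binomial 95% interval 6.23% to 12.2%) and 46 of 384 on plate 2 (12%, 8.91% to 15.7%). The intervals cover counting error within each plate only. The threshold was set after the values were seen, and 8 and 11 cells lay within 500 CPM of it. By gate there were 6, 6, 7 and 15 such cells on plate 1 and 11, 11, 8 and 16 on plate 2. They held 49.7% and 56.9% of the summed level.

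H2B genes were examined because the reporter contains H2B, and were chosen after their values were seen. Of 15 H2B genes in the table, 7 had a mean of at least 0.5 CPM and 1 reached 5 CPM. Hist1h2bf was at 3.09, 2.50, 2.95 and 2.7 CPM on plate 1 and at 1.03, 0.92, 1.14 and 1.16 CPM on plate 2. Hist1h2bb was at 1.5, 1.26, 1.47 and 1.20 CPM against 0.69, 0.46, 0.51 and 0.62 CPM, and Hist1h2bm at 1.12, 0.76, 0.99 and 0.85 CPM against 0.29, 0.36, 0.30 and 0.46 CPM. None of the 3 overlapped between the plates.

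Summed over gates, the ratio was 2.62 for Hist1h2bf (exact binomial 95% interval 2.31 to 2.98), 2.37 for Hist1h2bb (1.99 to 2.83) and 2.64 for Hist1h2bm (2.12 to 3.31), beside 2.31 for iRFP. The other 4 were Hist1h2bc, Hist2h2be, Hist1h2be and Hist1h2bg, with mean log2 ratios from -0.30 to 0.27 and overlapping groups. Across the cells of one gate, the Spearman correlation of Hist1h2bf with the iRFP transcript had a median of 0.48 over the 8 sums (range 0.26 to 0.58). It was 0.37 for Hist1h2bb, 0.23 for Hist1h2bm and between -0.05 and 0.05 for the other 4. Such pairs share a library and are based on few counts. H2B genes are near-identical copies, so reads could be assigned to more than one of them or come from the fusion construct, and the values of single members are uncertain. Whether reads of the construct were counted there was not tested.

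Cells could also be compared by fluorescence within a plate, where the plate does not differ. In each of the 8 blocks of plate and gate, cells were divided at the median far-red fluorescence into a bright and a dim part, whose medians differed 1.33- to 1.62-fold. This is less than the 2.30-fold between the plates, and the same cells enter both comparisons. Forward scatter of the bright part was 0.96 to 1.14 times that of the dim part. The iRFP transcript was higher in the bright cells in 8 of 8 blocks, at a mean log2 ratio of 0.41 ± 0.21 (SD over 8 blocks). YFP was higher in 4 of 8 (mean -0.00).

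The genes called between the plates mostly had the same sign within them. Of the 31 called higher, 26 (83.9%) had a mean above 0 in the bright cells, against 52.7% of all genes. Of the 40 called lower, 39 (97.5%) had a mean below 0, against 47.3% of all genes, and the exception was Scrn1 at 0.00. The medians were 0.17 and -0.25. These genes are not independent, since cycling genes share their cells. Gate 3 of plate 1 carried part of the second count, which became 31 of 40 without it. With the 4 blocks of plate 1 alone it was 32 of 40, with those of plate 2 alone 40 of 40, and without cells above 3000 CPM of the G2/M list 38 of 40. The first count was 23 of 31 with plate 1 alone and 26 of 31 with plate 2 alone. It was 24 of 31 without gate 3 of plate 1, and also without those G2/M cells. The 31 include iRFP, the transcript of the sorted reporter.

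Single genes differed in how far they followed fluorescence within a plate. Dcn was higher in the bright cells in 7 of 8 blocks (0.52 ± 0.59), as were Fibin (0.36 ± 0.33), Rnase4 (0.24 ± 0.18) and Nupr1 (0.24). Bgn, uncalled between plates, was higher in 8 of 8 (0.26 ± 0.20). Alcam, an adhesion molecule, was lower in 8 of 8 (-0.45), and Eln in 6 of 8 (-0.46 ± 0.72). Hist1h2bf was higher in 7 of 8 (0.47 ± 0.27).

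The mitochondrial ribosomal RNAs had ratios near 0 within plates. mt-Rnr1 had ratios between -0.08 and 0.11 in the 8 blocks (mean 0.00 ± 0.07), and mt-Rnr2 between -0.21 and 0.14 (mean -0.00 ± 0.10), beside 0.95 and 0.71 between the plates. Ccn2 had a mean of -0.01 ± 0.51. Genes of the amino acid response varied among themselves. Chac1 was higher in 4 blocks and lower in 4 (0.08 ± 1.10), while Pycr1 was higher in 7 of 8 (0.31), Mthfd2 and Ddit3 in 6 of 8 (0.22 and 0.18) and Slc7a5 in 5 of 8 (0.33). The amino acid response list had medians of 0.36, -0.06, 0.13 and 0.24 on plate 1 and of 0.42, -0.07, 0.47 and -0.35 on plate 2. It was positive in 5 blocks and negative in 3, with a mean of 0.14 ± 0.29, beside 0.34 between the plates. The G2/M list varied most, from -2.18 in gate 3 of plate 1 to 0.65 in gate 4 of plate 1.

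**Figure D5:**
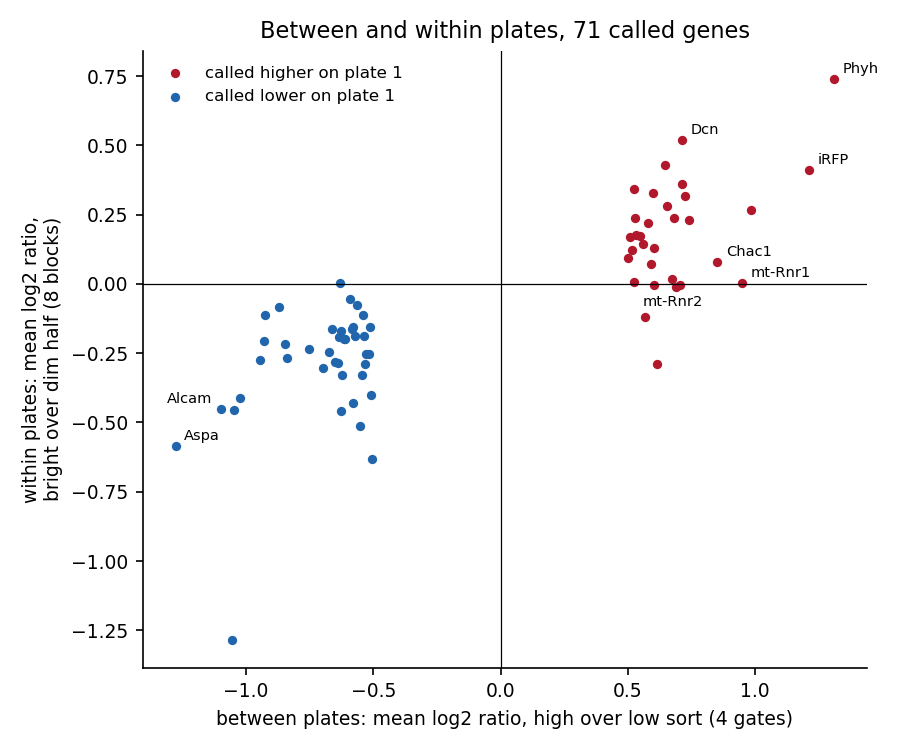
For the 71 called genes, the mean log2 ratio between plates (x axis, high over low sort, 4 gates) against the mean log2 ratio of bright over dim cells within plates (y axis, 8 blocks). Red genes were called higher and blue genes lower on plate 1. Of the red points 26 of 31 lie above 0 on the y axis and of the blue points 39 of 40 below 0, while mt-Rnr1 and mt-Rnr2 lie at 0.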

How the data were processed

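The authors deposited raw counts per gene and cell, and a sorting record whose fluorescence and scatter values are intensity readings in arbitrary units, per the file headers. The submitters' processing notes name STAR 2.7.11a, SAMtools, bedtools, HTSeq and the build GRCm39 (mm39). Use of strand and of molecular identifiers is not given in the sources used here. Of 33755 Ensembl features, symbols were matched by identifier without version, for 24902, and 2 features were reporters.

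Cells with at least 1000 genes were kept and counts summed per plate and Venus gate. CPM used TMM factors from edgeR 4.0.16 in R 4.3.3, and log2 values a prior count of 2. Gene ratios, lists and within-plate parts are described without a test, because each sort has 1 plate. Exact Poisson and binomial intervals (95%, scipy 1.17.1) cover counting error only. The calling step was run on simulated counts as a check of the computation. These had independent noise in each sum and no plate effect, so they cannot test the rule for these plates. Doublets were not called, as wells received single cells per the labels. Totals per cell ran from 2100 to 1618022 counts.

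The genes named were the 10 largest positive and 10 largest negative mean ratios among called genes with at least 20 CPM, found in at least 10% of cells, with neither predicted names nor mitochondrial origin, plus the reporters and up to 4 called members per list. Others are marked as chosen later or come from the lists. The comparison, its members and the 31 lists were chosen with earlier results of these data known. The lists of amino acid response, aminoacyl-tRNA synthetase, ER chaperone and H2B genes were added after the values were seen. Promoters are from RefSeq (GRCm38.p6), which differs from the build of the counts, and gene overlaps from GENCODE on the same older build. Some results are not reported here.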

Additional observations from a re-analysis of the deposited data

Results flagged for a closer look

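The G2/M list differed in direction between Venus gates. In gate 3, 41 of 54 genes were higher on plate 1, and in gate 2 52 of 54 were lower, so the list medians of the gates differed by 0.94 log2. The difference between the gates was not tested.

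The list of smooth muscle actin and SRF target genes was higher on plate 1 for 12 of 14 genes in gate 1 and lower for 11 of 14 in gate 4. The medians differed by 0.20 log2, the median over all gates was 0.03, and the difference was not tested.

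The ER chaperone list was higher for 8 of 10 genes in gate 1 and lower for 8 of 10 in gate 2, with medians that differed by 0.18 log2. This difference was not tested either.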

How the results depend on the processing

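No paired analysis was possible because each sort is 1 plate, so the sorts share only 1 replicate number. The matched Venus gates are parts of those plates. Over 18 other settings, 1 of them (leaving out cells above 3000 CPM of the G2/M list) added after seeing the data, the iRFP ratio lay between 1.15 and 1.28. All 71 called genes kept their sign under every setting, though fewer kept their call. The counts called, 31 higher and 40 lower, moved with the rule. They were 84 and 100 from 1 CPM, 22 and 17 from 20 CPM, 674 and 567 with no filter, 156 and 145 from 0.3 log2, and 2 and 5 from 1 log2. Library totals without TMM gave 21 and 65, where the median of all genes was -0.06. Leaving out 1 gate in turn gave 27 to 48 higher and 29 to 81 lower, with 47 and 70 without gate 4, 48 and 54 without gate 2, 39 and 29 without gate 1, and 27 and 81 without gate 3. The G2/M median ranged from -0.55 to -0.09 (the latter without cells chosen by the same genes, so it says nothing of where the difference lies), that of the amino acid response list from 0.27 to 0.39 and that of the ribosomal proteins from 0.07 to 0.16. The medians of the ER stress and of the mitochondrially encoded lists crossed 0 (-0.02 to 0.07 for each), as did the S phase median (-0.11 to 0.02). Of 864 values for other lists and named genes, 846 moved by no more than the SD over gates, 18 by more, and 0 called genes reversed. Pclaf was among the 18, at -1.87 without the cells above 3000 CPM of the G2/M list. The cause was not tested. Low counts limit genes under 20 CPM, which make up 9 of the 31 and 23 of the 40 called genes.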

Other observations

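Among groups not described above, 14 of 16 tested p53 target genes had mean ratios above 0, beside 4863 of all 9810 genes. Their median was 0.11. None was called, beside 0.724% of all genes, and with a list this short that is no result about it. Cdkn1a, an inhibitor of cyclin-dependent kinases, had the largest, 0.41 ± 0.19 (SD over 4 gates), at 223, 197, 172 and 214 CPM in gates 1 to 4 of plate 1 and 166, 138, 116 and 193 CPM on plate 2. It was higher on plate 1 in every gate, although the groups overlapped. Of 15 NRF2 target genes, which protect against oxidants, 12 lay below 0, beside 4947 of all 9810 genes. Their median was -0.10, and 0 were called, to which the same limit applies. Mgst1, a glutathione transferase, had the lowest, -0.66, and was not called because its sign was not the same in all gates. Of the clock genes, 0 of 11 E/D-box genes and 0 of 5 RORE genes were called, beside 0.724% of all genes. With lists this short, 0 calls is no result about them, and the gates were matched on the Nr1d1 reporter. Mean ratios ran from -0.37 to 0.19 in the E/D-box list (median -0.07). In the RORE list they ran from -0.25 to 0.54 (median -0.03).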
